A study of Mus musculus with 4 samples.

Results

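The genes of oxidative phosphorylation were followed in single endothelial cells of mouse aorta and lung with and without endothelial Oct4. They were taken by symbol from the genes named in all 4 deposited matrices: those starting with mt-Nd, mt-Co, mt-Cyt or mt-Atp, and the nuclear genes starting with Ndufa, Ndufb, Ndufc, Ndufs, Ndufv, Sdh, Uqcr, Cox4, Cox5, Cox6, Cox7, Cox8 or Atp5. This gave 109 of 30518 genes, 13 encoded by mitochondrial DNA and 96 by nuclear chromosomes, and no pseudogene met the rule. Complex I had 7 mitochondrially encoded and 36 nuclear genes, complex II 4 nuclear genes, complex III 1 and 8, complex IV 3 and 20, and complex V 2 and 15. The other nuclear genes were 12 assembly factors (Ndufaf and Sdhaf genes) and Atp5s, a synthase-related gene given no complex. Ndufa4 and Ndufa4l2 were counted in complex IV, where NDUFA4 is known to sit. Cox7a2l was counted in complex IV by its symbol alone.

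Complexes I to IV of the inner mitochondrial membrane pass electrons from NADH and succinate to oxygen and, except for complex II, pump protons. Complex V, the ATP synthase, lets the protons flow back and makes ATP. The core subunits encoded by mitochondrial DNA are transcribed from long polycistronic precursors and translated inside the organelle, while the nuclear subunits are imported, so each of complexes I, III, IV and V is built from both genomes. Endothelial cells are known to make most of their ATP by glycolysis, and their mitochondria are known mainly for signalling and biosynthesis.

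The KO groups were EC-Oct4Δ/Δ mice, labelled Oct4 knockout, from which 3 mice were used, and the WT groups were EC-Oct4+/+ mice, labelled Oct4 wild type, from which 2 mice were used. All were female C57/B6J mice of an endothelial lineage tracing line lacking Apoe, and all had 5 weeks of Western diet. Cells of the aorta (arch, thoracic and abdominal parts) and of the left lung lobe were released in buffers with 1 µg/mL actinomycin D, a blocker of transcription, and sorted for eYFP, with Cdh5-negative littermates setting the gate. The mice of each genotype were not separated in the deposited data and each of KO aorta, WT aorta, KO lung and WT lung is 1 library. Per its title, the study asked whether loss of OCT4 disturbs endothelial metabolism and phenotype. The genotype comparisons here cover only the RNA levels of respiratory genes. With 1 library per group nothing was tested and no difference could be checked in replicates. All intervals below are 95% intervals that cover counting error only.

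The deposited matrices held between 449 and 1623 barcodes and between 1034161 and 4483756 UMIs (unique transcript counts) per library. After filtering, 1325 KO and 353 WT cells in the aorta and 464 KO and 694 WT cells in the lung were blood endothelial-like, by clusters in which Pecam1, Cldn5, Ramp2 and other endothelial markers were detected. Their UMIs were summed per library, and levels are counts per 1000000 UMIs of that sum (CPM). These counts come from transcript ends and have no per-length scale, so levels were compared between libraries or cells but not between genes. Pou5f1, the gene of Oct4, had 1 UMI in all KO aorta barcodes and 0 in WT aorta, and 1 in KO lung and 2 in WT lung, too few for any check of the genotype, which a tag at the transcript end would not give in any case. In the same endothelial-like cells, the 9 lung epithelial markers summed to 35440 CPM in KO lung and 53.2 CPM in WT lung, with all 9 present in KO lung and Epcam and Krt18 at 0 in WT lung. The 5 erythroid markers summed to 9.72 CPM in KO aorta and 2816 CPM in WT aorta, and to 82.1 CPM in KO lung and 0.772 CPM in WT lung, where all but Hbb-bs were at 0. No more than 2 cell barcodes were shared by any pair of libraries.

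Of the 13 mitochondrially encoded genes, 12 entered every comparison (30 or more UMIs in the 2 libraries together and a mean level of 50 CPM or more), the exception being mt-Nd6, with 75 UMIs in KO aorta, 24 in WT aorta, 10 in KO lung and 14 in WT lung. Of the 96 nuclear genes, 76 entered each comparison. Left out of all comparisons were 6 Ndufaf and 3 Sdhaf assembly factors, Ndufs1, Atp5s and the tissue-restricted forms Cox4i2, Cox6a2, Cox6b2, Cox7a1, Cox7b2, Cox8b, Cox8c and Ndufa4l2. Ndufaf3 was left out between the aortic libraries and Sdhaf4 in the other comparisons. Cox7b2, Cox6a2 and Cox8c had no UMI in any deposited barcode. Summed shares and ratios below cover every gene of a list or complex, including those that did not enter. Counts of genes higher or lower cover only those that entered.

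Mitochondrially encoded transcripts took a larger share of the aortic than of the lung libraries, and outnumbered the nuclear members in all 4. They made up 4.13% of UMIs in KO aorta and 4.33% in WT aorta, and 3.02% in KO lung and 3.09% in WT lung. The nuclear members made up 2.46% in KO aorta and 2.43% in WT aorta, and 1.955% in KO lung and 2.10% in WT lung. The mitochondrial to nuclear ratio was 1.67 (1.66 to 1.69) in KO aorta and 1.79 (1.76 to 1.82) in WT aorta, and 1.54 (1.51 to 1.57) in KO lung and 1.48 (1.453 to 1.499) in WT lung. The KO ratio was thus lower than the WT ratio in the aorta, 0.938 times it (0.920 to 0.956), and higher in the lung, 1.05 times it (1.02 to 1.07), without the interval of either including 1. Within single clusters the direction was mixed: KO was above WT in 3 of 7 aortic clusters and below it in 4, by ratios of 0.795 to 1.06, and above it in 5 of 7 lung clusters and below it in 2, by ratios of 0.882 to 1.19.

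The genotype difference of this ratio was not the same for every complex. For complex I the ratio was 1.01 in KO aorta and 1.12 in WT aorta, and 1.10 in KO lung and 1.02 in WT lung. For complex IV it was 2.33 in KO aorta and 2.45 in WT aorta, and 2.15 in KO lung and 1.960 in WT lung. In complexes I and IV the ratio was lower in KO than in WT aorta and higher in KO than in WT lung. For complex III the KO over WT quotient of the ratio was 0.971 (0.920 to 1.03) in the aorta and 1.05 (0.980 to 1.13) in the lung, both intervals including 1. Complex V, at 1.92 in KO aorta and 2.12 in WT aorta, and 1.67 in KO lung and 1.76 in WT lung, was lower in the KO library of both tissues.

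**Figure D1:**
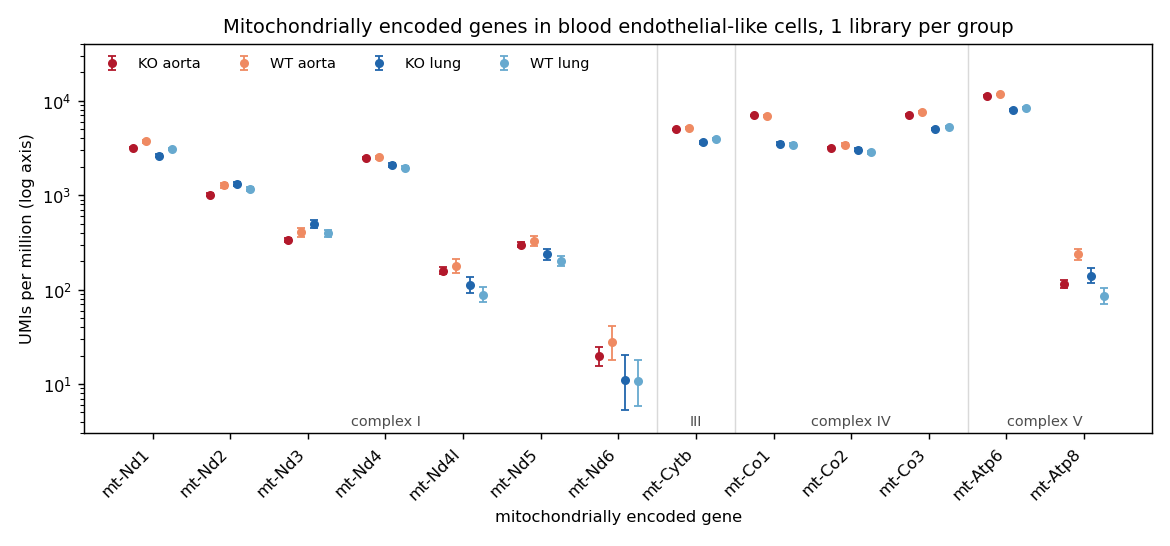
CPM (log axis) of the 13 mitochondrially encoded genes in blood endothelial-like cells, in 1 library per group, with exact Poisson 95% intervals for counting error. The 2 aortic libraries lie above both lung libraries for mt-Co1, mt-Co3, mt-Cytb and mt-Atp6, whereas mt-Atp8 is highest in WT aorta and lowest in WT lung.

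In the aorta, 11 of the 12 mitochondrially encoded genes had lower levels in the KO library, and 2 of them, mt-Atp8 and mt-Nd2, were at or below 0.8 times the WT level, where 10.3% of all 2960 genes compared were. Of these 2960 genes, 12.8% were at least 25% higher and 55.1% were higher in KO by any amount, with a median log2 ratio of 0.03. The 7 complex I genes encoded in the mitochondria summed to 0.750% of UMIs in KO aorta and 0.845% in WT aorta, a ratio of 0.888 (0.865 to 0.911). mt-Nd1, a core subunit of the membrane arm near the quinone site, was at 3197 CPM in KO aorta and 3714 CPM in WT aorta, a ratio of 0.861 (0.828 to 0.895). mt-Nd2, a proton-pumping subunit, was at 1015 CPM in KO aorta and 1280 CPM in WT aorta. The cytochrome c oxidase genes were close to equal, with a summed ratio of 0.976 (0.959 to 0.993). mt-Co1, the catalytic subunit, was the gene above 1, at 7053 CPM in KO aorta and 6850 CPM in WT aorta. Within the 7 aortic clusters compared, mt-Nd1 and mt-Nd2 were lower in KO in 6 and mt-Atp8 in all 7. By contrast, mt-Atp6, mt-Co3 and mt-Cytb were each lower in KO in 3 and higher in 4.

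The nuclear members did not follow. Of the 76, 44 were higher and 32 lower in KO aorta, with a median log2 ratio of 0.04 and a summed ratio of 1.02 (1.00 to 1.03). Past these same bounds were 2 higher and 1 lower, a smaller share than among all genes. Atp5b, the catalytic beta subunit of the ATP synthase (chr10:128083273-128090391), had the ratio farthest above 1, at 649 CPM in KO aorta and 470 CPM in WT aorta, 1.38-fold (1.24 to 1.54). It was higher in KO in all 7 aortic clusters with at least 20 cells of each library, by ratios of 1.014 to 1.495. Ndufa8, a supernumerary subunit of complex I, was at 162 CPM in KO aorta and 130 CPM in WT aorta, a log2 ratio of 0.32 (ratio interval 1.02 to 1.54). Ndufa1, also of complex I, was at 232 CPM in KO aorta and 189 CPM in WT aorta, and Uqcrc1, a core protein of complex III, at 192 CPM in KO aorta and 157 CPM in WT aorta.

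At the other end stood complex I genes. Ndufv1, which holds the flavin that takes electrons from NADH, was at 89.1 CPM in KO aorta and 119 CPM in WT aorta, a ratio of 0.747 (0.597 to 0.941). Ndufa6, a supernumerary subunit bound to the acyl carrier protein, was at 465 CPM in KO aorta and 555 CPM in WT aorta (ratio 0.839, 0.758 to 0.930), and Ndufb10 at 226 CPM in KO aorta and 276 CPM in WT aorta. Summed over complexes, nuclear complex V had a ratio of 1.05 (1.02 to 1.09), with 10 of 15 genes higher, and nuclear complex I 0.985 (0.959 to 1.01), with 16 of 35 higher. The mitochondrial genes together had a summed ratio of 0.952 (0.942 to 0.963), and within the 7 clusters this ratio was above 1 in 4 and below 1 in 3, from 0.810 to 1.09. On the log2 scale it was -0.07, against -0.155 with no limit on the mitochondrial share of a cell and -0.018 with cells thinned to 1000 UMIs each. The mix of clusters also differed between the libraries. A capillary-like cluster and one led by Stab1, described below, had the highest mitochondrial shares. They held 103 and 78 of 1325 KO cells and 58 and 34 of 353 WT cells. The part of this in the summed ratio was not tested. Barcodes over 15% mitochondrial UMIs, left out here, numbered 54 in KO aorta and 45 in WT aorta, 11 in KO lung and 8 in WT lung.

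**Figure D2:**
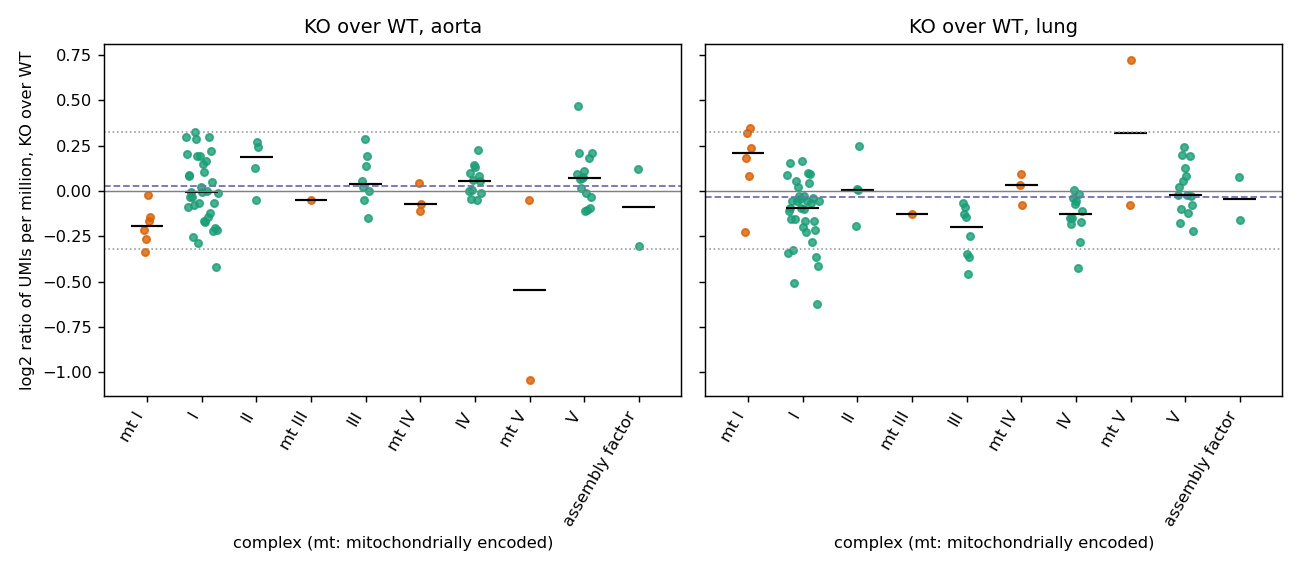
log2 ratio of KO over WT level for each gene that entered the comparison, by complex, in the aorta and in the lung, with mitochondrially encoded genes in orange and nuclear genes in green. Black bars are medians, the dashed purple line is the median of all genes (0.03 in the aorta and -0.04 in the lung) and dotted lines mark 25% higher and 0.8 times, and in the lung all 8 nuclear complex III genes lie below 0.

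In the lung, nuclear members had lower levels in the KO library, with the lowest summed ratio in complex III. Of 76 nuclear genes, 20 were higher and 56 lower in KO lung, with a median log2 ratio of -0.08 against -0.04 over all 3284 genes, of which 44.0% were higher. At or below 0.8 times were 10 and at least 25% higher 0, where 12.2% and 9.38% of all genes were, so the share on the lower side was near that of all genes. All 8 nuclear complex III genes were lower, with a summed ratio of 0.871 (0.824 to 0.921). Uqcrh, the hinge protein beside cytochrome c1, was at 417 CPM in KO lung and 536 CPM in WT lung, a ratio of 0.778 (0.685 to 0.882). Uqcrfs1, the Rieske iron-sulfur protein, was at 105 CPM in KO lung and 144 CPM in WT lung, a ratio of 0.728 (0.563 to 0.936).

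Complex I followed the same direction, with 27 of 35 nuclear genes lower and a summed ratio of 0.920 (0.890 to 0.951). Ndufa6 was at 347 CPM in KO lung and 493 CPM in WT lung, a ratio of 0.704 (0.613 to 0.806). Ndufv1 was at 70.1 CPM in KO lung and 108 CPM in WT lung (0.648, 0.475 to 0.878), and its partner Ndufv2, which holds an iron-sulfur cluster beside it, at 141 CPM in KO lung and 188 CPM in WT lung (0.750, 0.601 to 0.932). Ndufa6, Ndufv2, Uqcrh and Uqcrfs1 were lower in KO in each of the 7 lung clusters compared. In complex IV, 11 of 12 were lower, and Cox7a2l was at 322 CPM in KO lung and 431 CPM in WT lung (0.746, 0.646 to 0.861). Cox7c was at 578 CPM in KO lung and 704 CPM in WT lung.

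Complex V was level, with a summed ratio of 1.00 (0.965 to 1.04). The nuclear genes ranked highest in KO over WT lung included Atp5j2, Atp5e and Atp5g1, all of the synthase, the last at 181 CPM in KO lung and 153 CPM in WT lung (1.18, 0.956 to 1.46). None of these intervals excluded 1. The mitochondrially encoded genes split, with 8 higher and 4 lower in KO lung and a summed ratio of 0.975 (0.960 to 0.990). mt-Nd2, at 1321 CPM in KO lung and 1165 CPM in WT lung (1.13, 1.05 to 1.22), and mt-Nd3, at 494 CPM in KO lung and 395 CPM in WT lung (log2 ratio 0.32), were higher, whereas mt-Nd1, at 2624 CPM in KO lung and 3075 CPM in WT lung, had a ratio of 0.853 (0.811 to 0.898). mt-Nd1 was thus the mitochondrially encoded complex I gene with a lower level in KO in both tissues.

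Part of the lung difference moved with the UMIs of other cells. With the lung epithelial and erythroid marker UMIs left out of the totals, a setting chosen after the data were seen, 29 nuclear members were higher and 47 lower in KO lung, and 5 were at or below 0.8 times (Cox7a2l, Ndufa6, Ndufv1, Ndufv2 and Uqcrfs1), where 8.61% of all genes were. The summed nuclear log2 ratio was -0.05 in place of -0.10, and the summed mitochondrial one 0.02 in place of -0.04. Cytosolic ribosomal proteins, which are no members, summed to 9.55% of UMIs in KO lung and 11.0% in WT lung, a ratio of 0.872 (0.864 to 0.879) at the full totals. The part of other cells' RNA in the remaining difference was not tested. Across the genotype comparisons of aorta and lung, which share no library, 44 of 75 nuclear members that entered both had the same direction (58.7%), beside 1334 of 2493 genes in all (53.5%), and 5 of 12 mitochondrially encoded ones.

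Between tissues the respiratory genes were higher in aortic cells in both genotypes, in complex IV for every nuclear gene compared. The mitochondrially encoded genes summed to a ratio of aorta over lung of 1.37 (1.35 to 1.39) in KO and 1.40 (1.38 to 1.42) in WT. The nuclear members summed to 1.26 (1.24 to 1.28) in KO and 1.16 (1.14 to 1.18) in WT. In KO, 67 of 76 nuclear genes were higher in the aorta and 8 at least 1.5-fold higher, where 47.0% of all 3216 genes were higher and 18.4% at least 1.5-fold higher. In WT, 58 of 76 were higher and 2 at least 1.5-fold higher, where 43.6% and 15.9% of all 3211 genes were. All 12 nuclear complex IV genes were higher in the aorta in both genotypes, summing to 1.39 (1.35 to 1.43) in KO and 1.23 (1.19 to 1.27) in WT. The cytosolic ribosomal proteins summed to 1.74 (1.73 to 1.76) in KO and 1.59 (1.58 to 1.60) in WT, so higher aortic shares were not particular to respiratory genes.

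mt-Co1 stood out among the mitochondrially encoded genes, at 7053 CPM in KO aorta and 3521 CPM in KO lung, and at 6850 CPM in WT aorta and 3442 CPM in WT lung. Its aorta over lung ratio was 2.00 (1.93 to 2.08) in KO and 1.99 (1.91 to 2.07) in WT, against 1.05 in KO and 1.21 in WT for mt-Co2, a subunit of the same enzyme. Counts of genes of 1 complex encoded on 1 strand of the same molecule thus differed between tissues by unequal amounts. The 3′ ends of mt-Co1 and mt-Co2 each share at least 50% of their 50-base stretches with other transcripts, so both counts can lose reads. The part of this in the tissue difference was not tested. The exceptions to the aortic direction were mt-Nd2, mt-Nd3 and mt-Atp8, which were lower in the aorta in KO, with ratios of 0.768, 0.681 and 0.811, and higher in WT, with ratios of 1.10, 1.02 and 2.76.

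Of the nuclear genes, Cox7a2l was at 562 CPM in KO aorta and 322 CPM in KO lung, and at 583 CPM in WT aorta and 431 CPM in WT lung. Uqcrh was at 702 CPM in KO aorta and 417 CPM in KO lung, and at 777 CPM in WT aorta and 536 CPM in WT lung. Cox4i1, the ubiquitous form of a regulatory subunit of complex IV, was at 1185 CPM in both aortic libraries, 760 CPM in KO lung and 841 CPM in WT lung. Atp5e, the epsilon subunit of the synthase, had ratios of 1.49 (1.32 to 1.69) in KO and 1.69 (1.47 to 1.95) in WT. Complex II, which also serves the citric acid cycle and has no mitochondrially encoded gene, had 2 of its 4 genes higher and 2 lower in the aorta in both genotypes, and summed to 0.941 (0.851 to 1.04) in KO and 0.864 (0.761 to 0.980) in WT. Its iron-sulfur subunit Sdhb was at 153 CPM in KO aorta and 224 CPM in KO lung, and at 159 CPM in WT aorta and 223 CPM in WT lung, ratios of 0.682 (0.580 to 0.803) and 0.711 (0.576 to 0.875). The tissue comparisons of the 2 genotypes share no library, and 65 of 76 nuclear members (85.5%) had the same direction in both, beside 2515 of 2996 genes in all (83.9%).

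**Figure D3:**
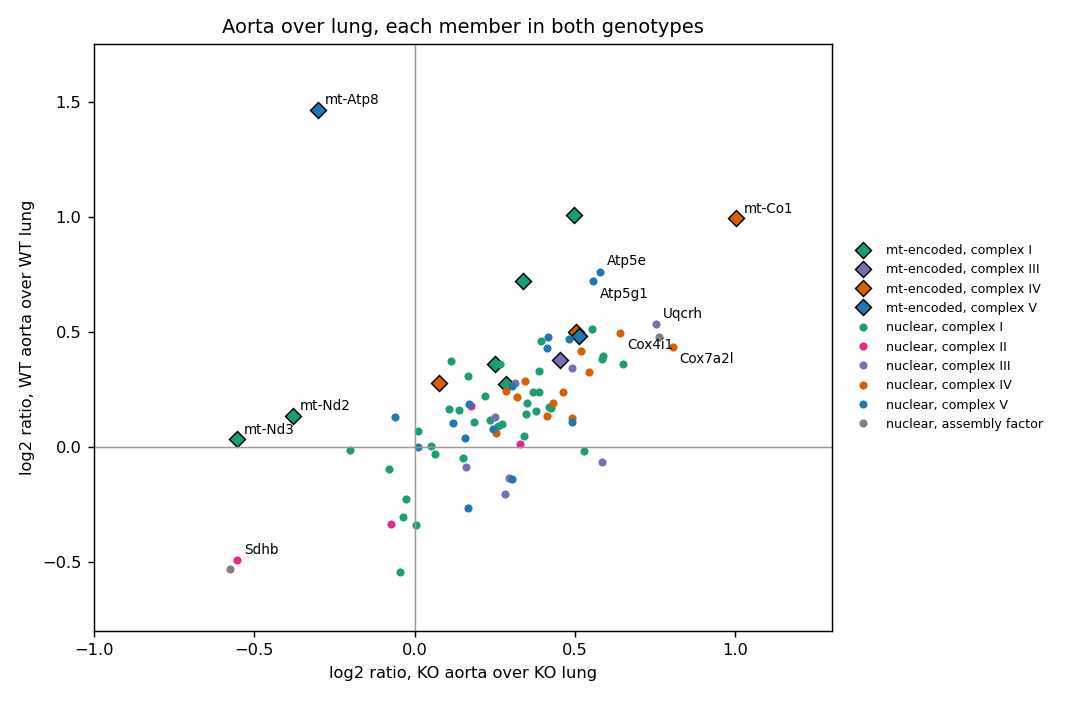
log2 ratio of aorta over lung level in KO (x axis) and in WT (y axis) for each gene that entered both comparisons, coloured by complex, diamonds for mitochondrially encoded genes. Most genes lie above 0 on both axes, with mt-Co1 near 1.0 on both, Sdhb below 0 on both, and mt-Atp8 at -0.30 in KO and 1.46 in WT.

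mt-Atp8, a small membrane subunit of the ATP synthase, had the genotype ratios farthest from 1 among the mitochondrially encoded genes, in opposite directions. It was at 115 CPM in KO aorta and 236 CPM in WT aorta, a ratio of 0.485 (0.410 to 0.576), and at 141 CPM in KO lung and 85.7 CPM in WT lung, a ratio of 1.65 (1.27 to 2.14). Its reading frame (chrM:7766-7969) overlaps that of mt-Atp6 (chrM:7927-8607) by 43 bases, and both are known to be carried on 1 bicistronic messenger RNA. The overlap is shown because counts of the genes are tied to how reads at it are assigned. The last 60 bases of mt-Atp8 on the plus strand of mm10 (chrM:7910-7969) are printed first, with the bases shared with mt-Atp6 in capitals. For comparison, the last 60 bases of mt-Nd4l (chrM:10114-10173), which shares 7 bases with mt-Nd4, are printed with those bases in capitals.
mt-Atp8: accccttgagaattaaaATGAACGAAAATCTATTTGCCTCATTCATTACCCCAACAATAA
mt-Nd4l: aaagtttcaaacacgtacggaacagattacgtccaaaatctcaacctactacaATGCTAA

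Although both frames lie on that messenger, the mt-Atp8 count did not keep a fixed proportion to the mt-Atp6 count. There were 1.02 mt-Atp8 UMIs per 100 mt-Atp6 UMIs in KO aorta (0.924 to 1.12) and 2.02 in WT aorta (1.76 to 2.32), and 1.78 in KO lung (1.498 to 2.12) and 1.02 in WT lung (0.849 to 1.23). WT aorta and KO lung had overlapping intervals, as had KO aorta and WT lung, and the 2 pairs did not overlap each other. Over blood endothelial-like clusters the proportion ran from 0.621 to 1.23 in the 8 of KO aorta and from 1.66 to 2.49 in the 7 of WT aorta, which did not overlap, and from 1.201 to 2.21 in the 7 of KO lung and from 0.478 to 1.41 in the 8 of WT lung, which did. Lymphatic-like cells, which are outside these sums, had 34 mt-Atp8 UMIs in the 193 cells of KO aorta and 21 in the 39 of WT aorta, and 10 in the 18 of KO lung and 5 in the 42 of WT lung, so the lung proportions there rest on few UMIs and are not given. The neighbouring overlapping pair had no such contrast in the aorta, with 6.42 mt-Nd4l UMIs per 100 mt-Nd4 UMIs in KO aorta and 7.08 in WT aorta, and 5.42 in KO lung and 4.52 in WT lung. WT aorta and KO lung are also the libraries with the higher erythroid sum in each tissue, as given above, and the part of this in the mt-Atp8 counts was not tested. The 3′ ends of mt-Atp6, mt-Co1, mt-Co2, mt-Co3, mt-Nd3, mt-Nd4l, Atp5h and Atp5g2 share at least 50% of their 50-base stretches with other transcripts, so their counts can lose reads.

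**Figure D4:**
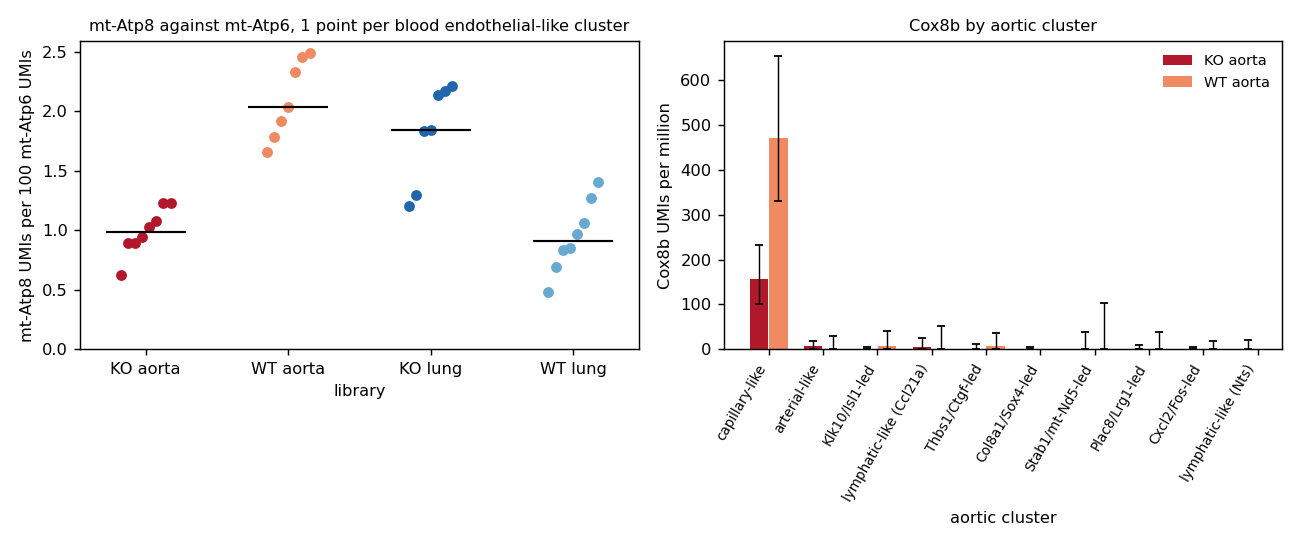
Left, mt-Atp8 UMIs per 100 mt-Atp6 UMIs, 1 point per blood endothelial-like cluster with a bar at the median, in KO aorta, WT aorta, KO lung and WT lung. Right, Cox8b CPM in each aortic endothelial-like cluster with at least 20 cells of the library, KO beside WT, with exact Poisson 95% intervals, which shows 157 in KO and 472 in WT in the capillary-like cluster and single-digit or 0 levels in the others drawn.

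In the aorta vessel types differed mainly in the mitochondrially encoded transcripts and little in the nuclear ones. Clusters were built from the expression of all genes, members included, so these values describe the clusters and test nothing. In the aorta the mitochondrial to nuclear ratio was highest in an unnamed cluster led by Stab1, Nos3, Lamb2 and mt-Nd5, at 2.87 in KO and 2.98 in WT, whose cells had median depths of 1084 UMIs in KO and 884 UMIs in WT. It was next highest in general capillary-like cells, led by Rgcc, Car4 and Gpihbp1, at 2.31 in KO and 2.62 in WT, and was 1.88 in KO and 1.83 in WT arterial-like cells. It was lowest in a cluster led by Cxcl2 and Fos, at 1.15 in KO and 1.198 in WT, with median depths of 3570 UMIs in KO and 3558 UMIs in WT. Lymphatic-like cells led by Ccl21a were at 1.34 in KO and 1.35 in WT. When the cells were clustered without the members, Stab1 was among the leading genes of no aortic cluster. Capillary-like cells then had the highest ratio, 2.31 in KO and 2.60 in WT.

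The nuclear share stayed between 2.32% and 2.57% of UMIs in the KO aorta clusters and between 2.28% and 2.59% in those of WT aorta, while the mitochondrial share ran from 2.83% to 7.23% in KO and from 2.98% to 6.87% in WT. In the lung both shares varied, the nuclear one from 1.74% to 2.22% in KO and from 1.89% to 2.26% in WT, and the mitochondrial one from 2.71% to 3.57% in KO and from 2.59% to 3.68% in WT. Cells of lower depth had higher mitochondrial shares in every library. Over single cells the Spearman correlation of the mitochondrial share with the UMI count was -0.49 in KO aorta, -0.41 in WT aorta, -0.48 in KO lung and -0.42 in WT lung, with 1325, 353, 464 and 694 cells. The mitochondrial UMIs are part of that count. With every cell thinned to 1000 UMIs, and 100, 64, 114 and 128 shallower cells left out, it was -0.49, -0.39, -0.40 and -0.30 against the original depth.

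In the lung the 3 highest ratios were those of arterial-like cells, 1.93 in KO and 1.62 in WT, of a cluster led by Iigp1, 1.89 in KO and 1.86 in WT, and of one led by Ptgs1, 1.88 in KO and 1.66 in WT. Venous-like cells were at 1.41 in KO and 1.49 in WT. Aerocyte-like cells, the wide thin capillary cells of gas exchange, had among the lowest, 1.32 in KO and 1.19 in WT. The 3 lung clusters named first were highest, and aerocyte-like cells lowest of the blood endothelial-like clusters, in both genotypes. KO exceeded WT in lung arterial-like and aerocyte-like cells and lay below it in lung venous-like cells. In the aorta the highest and lowest clusters were also the same in both genotypes, but a cluster led by Plac8 and Lrg1 was at 1.71 in KO and 2.16 in WT.

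**Figure D5:**
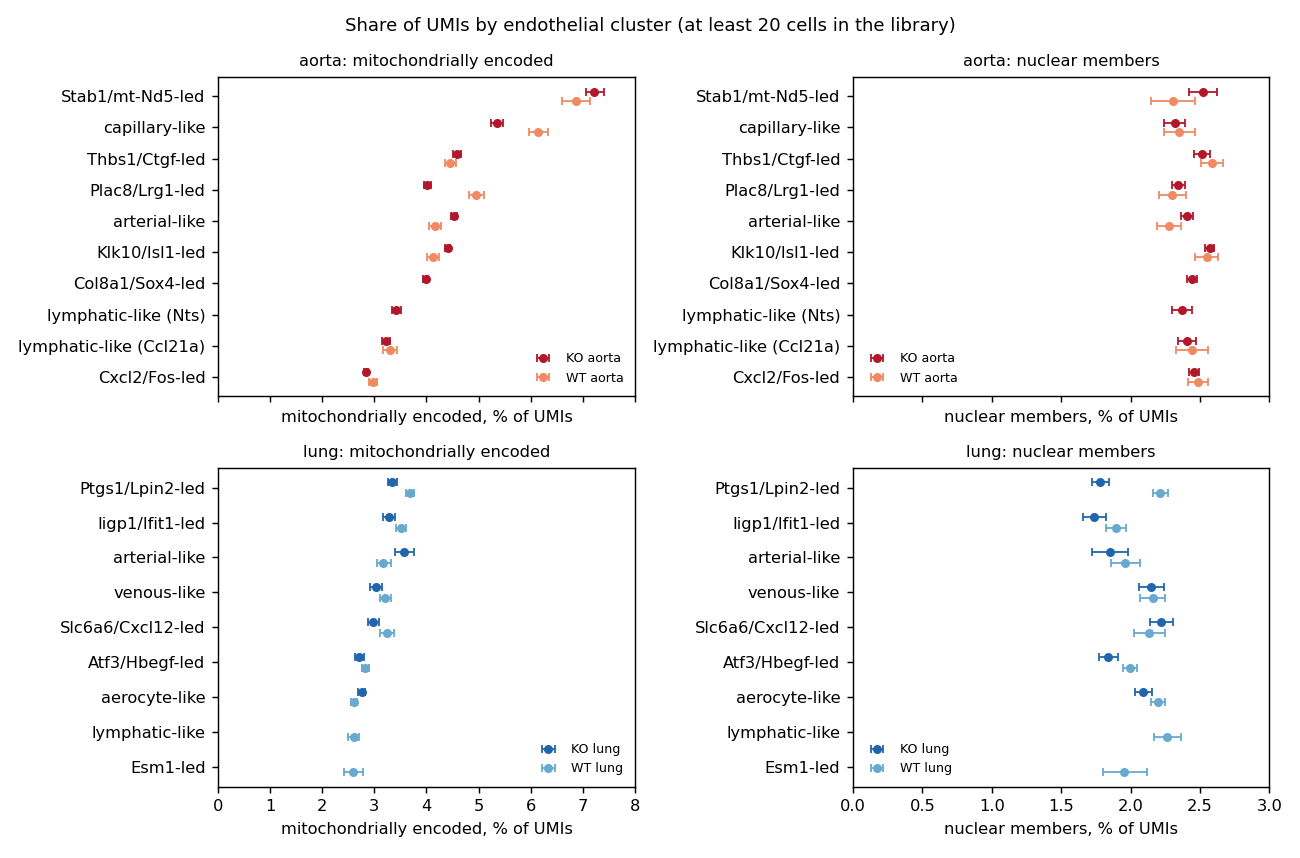
Share of UMIs (%) taken by the mitochondrially encoded genes (left) and by the nuclear members (right) in each endothelial-like cluster with at least 20 cells of the library, aorta above lung and KO above WT, with 95% intervals for counting error. In the aorta the mitochondrially encoded share runs from 2.83% to 7.23% in KO and from 2.98% to 6.87% in WT, while the nuclear share lies between 2.32% and 2.57% in KO and between 2.28% and 2.59% in WT.

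Single nuclear members differed more between vessel types than the summed share did. The genes named here were picked by their ratios in these same clusters, so the values describe the clusters and test nothing. Levels are set against those of the other endothelial-like cells of the same library, lymphatic-like ones included. In aerocyte-like cells Ndufa11, a complex I subunit, was at 342 against 144 CPM in KO lung, and at 275 against 181 CPM in WT lung. Sdhb was at 296 against 197 CPM in KO and 336 against 180 CPM in WT. Cox7a2l was lower in them, at 221 against 353 CPM in KO and 285 against 487 CPM in WT. Sdhb was also the nuclear gene ranked lowest, and Cox7a2l among the 6 highest, in aorta over lung in both genotypes. In lung venous-like cells Sdhb was at 133 against 227 CPM in KO and 130 against 221 CPM in WT. The venous-like cluster held 97854 UMIs in KO lung and 100040 in WT lung, so levels near 130 CPM rest on few UMIs. In aortic capillary-like cells Ndufc2, a complex I subunit, was at 453 against 236 CPM in KO and 524 against 241 CPM in WT, and Atp5g2, a form of the c-ring subunit, at 258 against 423 CPM in KO and 170 against 399 CPM in WT. In lymphatic-like cells of the aorta Ndufa4 was at 441 CPM, against 615 CPM in the blood endothelial-like cells, in KO, and at 321 against 620 CPM in WT.

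UMIs of Cox8b and Cox7a1 in the aorta were mostly in the capillary-like cells, apart from Cox7a1 in KO. They are the striated muscle and brown fat forms of subunits whose ubiquitous forms are Cox8a and Cox7a2. Of 31 Cox8b UMIs in all KO aorta cells kept, 25 were in the capillary-like cluster, in 17 of its 103 cells, and of 38 in WT aorta, 36 were, in 17 of its 58 cells. This made 157 CPM (102 to 232) in KO and 472 CPM (330 to 653) in WT, a ratio of 0.333 (0.192 to 0.571), a comparison chosen after its values were seen. Its cells had median depths of 1334 UMIs in KO and 1110 UMIs in WT. No other aortic endothelial-like cluster had a Cox8b UMI in more than 1.89% of its cells. Cox7a1 followed, with 5 of 11 UMIs of the kept cells of KO aorta and 12 of 12 of WT aorta in the same cluster, 31.5 CPM in KO and 157 CPM in WT. In the lung Cox8b had 0 UMIs in the kept KO cells and 4 in those of WT. The ubiquitous forms were present in the same capillary-like cells, Cox8a at 692 CPM in KO and 681 CPM in WT and Cox7a2 at 585 CPM in KO and 432 CPM in WT.

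UMIs of fat cell markers were found in the same aortic cluster as most of those of Cox8b. Of 6 adipocyte markers 4 had UMIs in the KO capillary-like cluster, 12 UMIs in all or 75.5 CPM, with Plin1 and Retn at 0, and 3 had UMIs in the WT one, 13 UMIs or 170 CPM, with Adipoq, Plin1 and Retn at 0. The other aortic blood endothelial-like cells had 0 UMIs of these markers in both libraries. Among them Ucp1, the brown fat uncoupling protein, had 6 UMIs in KO and 8 in WT. Cells of the cluster with a UMI of Ucp1, Cidea, Adipoq, Plin1 or Cidec numbered 8 in KO and 8 in WT. Of these, 2 in KO and 6 in WT also held Cox8b. All 7 cardiomyocyte markers were at 0 in the cluster in both libraries. Whether RNA of fat cells contributes to the Cox8b and Cox7a1 counts was not tested. The other restricted forms were rare in blood endothelial-like cells: Cox6b2, the testis form, had 48 UMIs in KO aorta, 19 in WT aorta, 3 in KO lung and 0 in WT lung, Cox4i2 had at most 3 UMIs in any library, and Ndufa4l2 had 6 UMIs in KO aorta and 0 in the others.

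The promoters of Cox8a and Cox8b differ in ETS matches, which were more frequent among nuclear members than among all genes. Those of Cox7a2 and Cox7a1 both lack NRF1 and ETS matches. NRF1 and ETS-family factors such as GABP are known activators of nuclear respiratory genes. In the RefSeq promoters of GRCm38.p6 (250 bases before to 50 after the start), 80 of the 96 nuclear members could be matched. Searched on both strands, the NRF1 motif, GCGCA, any base and GCGC, was found in 21 of the 80 (26.3%) and in 5.19% of all 27025 genes with a promoter. The ETS motif CCGGAAG was found in 21 (26.3%) and in 9.93% of all genes. CCAAT was found in 35 (43.8%) and 41.1%, and TATAAA in 8 (10.0%) and 15.7%; no motif of these contains another. Cox6a1, a ubiquitous complex IV subunit, was picked because its promoter holds both NRF1 and ETS matches. Its difference from Cox8b was set by that choice. The promoters of Cox6a1, Cox8a and Cox8b are printed on the strand of the gene, with matches on either strand in capitals. They are chr5:115348909-115349208 (minus strand), chr19:7217567-7217866 (minus strand) and chr7:140900397-140900696 (minus strand).
Cox6a1: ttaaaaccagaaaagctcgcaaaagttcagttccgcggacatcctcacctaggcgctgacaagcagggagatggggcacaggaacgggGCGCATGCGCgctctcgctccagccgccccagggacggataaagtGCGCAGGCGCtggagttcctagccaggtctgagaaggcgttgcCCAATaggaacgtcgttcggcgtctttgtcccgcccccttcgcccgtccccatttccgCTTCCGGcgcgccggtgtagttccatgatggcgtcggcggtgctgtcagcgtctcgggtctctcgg
Cox8a: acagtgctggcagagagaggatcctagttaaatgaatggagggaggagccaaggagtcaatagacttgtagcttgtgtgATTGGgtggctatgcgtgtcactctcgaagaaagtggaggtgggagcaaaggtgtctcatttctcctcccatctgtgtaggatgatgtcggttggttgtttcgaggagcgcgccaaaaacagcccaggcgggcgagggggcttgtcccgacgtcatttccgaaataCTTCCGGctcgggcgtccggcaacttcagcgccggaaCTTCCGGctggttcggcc
Cox8b: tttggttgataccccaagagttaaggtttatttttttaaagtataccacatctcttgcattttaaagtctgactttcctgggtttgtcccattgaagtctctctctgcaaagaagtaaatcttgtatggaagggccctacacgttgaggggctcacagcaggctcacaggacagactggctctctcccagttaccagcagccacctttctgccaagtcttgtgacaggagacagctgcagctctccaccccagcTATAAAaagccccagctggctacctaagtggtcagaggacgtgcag

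The Cox6a1 promoter held 2 NRF1, 1 ETS and 1 CCAAT match, the Cox8a promoter 2 ETS and 1 CCAAT match, and the Cox8b promoter 1 TATAAA match and none of the others. The Cox7a1 promoter held 2 CCAAT matches and that of Cox7a2 none of the 4 motifs. Such a match is a description of letters in this window only.

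The rest of the mitochondrial programme was followed in lists of genes that are no members. The mitochondrial ribosome, which translates the mitochondrially encoded subunits, summed to 0.489% of UMIs in KO aorta and 0.450% in WT aorta, a ratio of 1.09 (1.05 to 1.12), with 26 of 41 genes higher. Of these 8 were at least 25% higher, and 2 genes were at or below 0.8 times, where 12.8% and 10.3% of all genes were, and 55.1% of all genes were higher by any amount. In the lung it summed to 0.425% in KO and 0.448% in WT, a ratio of 0.948 (0.910 to 0.988), with 11 of 38 genes higher. Of these 4 were at least 25% higher, and 7 genes were at or below 0.8 times, where 9.38% and 12.2% of all genes were. Of all genes, 44.0% were higher in KO lung by any amount. In the aorta the summed ratio of the mitochondrial ribosome was thus above 1, and that of the mitochondrially encoded transcripts, 0.952, below it. Within single aortic clusters the latter ratio was above 1 in 4 of 7, and the ribosome genes were not followed within clusters. Citric acid cycle enzymes had a ratio of 1.15 (1.07 to 1.253) in the aorta, with 5 of 7 genes higher, and of 1.09 (0.999 to 1.198) in the lung, with 7 of 8 higher. Protein import had ratios of 1.02 (0.969 to 1.08) in the aorta, with 7 of 12 genes higher, and 1.03 (0.961 to 1.10) in the lung, with 5 of 10 higher. Beside the counts of these lists, 55.1% of all genes were higher in KO aorta and 44.0% in KO lung.

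Electron carriers and the enzymes that feed them had a ratio of 0.967 (0.894 to 1.05) in the aorta, with 1 of 6 genes higher, and of 1.12 (1.02 to 1.23) in the lung, with 4 of 5 higher. Of all genes, 55.1% were higher in KO aorta and 44.0% in KO lung, shares that also stand beside the membrane carriers below. Cycs, cytochrome c, was at 163 CPM in KO aorta and 176 CPM in WT aorta, and at 200.3 CPM in KO lung and 190 CPM in WT lung. Only 7 of 32 further assembly factors, 2 of 27 genes of mitochondrial DNA expression and 1 of 14 biogenesis regulators, Yy1, had enough UMIs to enter, which limits what can be said of them. Summed over the whole lists, genes that did not enter included, the ratios in the aorta were 1.04, 1.04 and 1.07, and in the lung 0.997, 1.07 and 1.16. Yy1 itself had ratios of 0.999 (0.756 to 1.34) in the aorta and 1.14 (0.871 to 1.48) in the lung. The carriers of the inner and outer membrane had ratios of 1.12 (1.05 to 1.18) in the aorta, with 6 of 7 genes higher, and 0.913 (0.860 to 0.968) in the lung, with 2 of 8 higher. Slc25a4, the muscle and heart form of the ADP/ATP carrier, was at 517 CPM in KO aorta and 255 CPM in KO lung, and at 488 CPM in WT aorta and 313 CPM in WT lung. Ucp2, an inner membrane carrier, was at 16.6 CPM in KO aorta and 602 CPM in KO lung, and at 9.26 CPM in WT aorta and 711 CPM in WT lung, the lowest aorta over lung ratio of its list in both genotypes.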

How the data were processed

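The deposited files hold raw UMI counts of each gene in each cell. Per the submitters' processing notes, the authors used Cell Ranger and the mm10 build; their versions are not stated in the labels used here. Aortic files name genes by symbol and lung files by Ensembl identifier; 42 lung identifiers were unmatched. Depth per library is in the report; coordinates are mm10, 1-based, for whole genes.

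Barcodes under 500 UMIs, under 200 genes or over 15% mitochondrial UMIs (57 KO aorta, 50 WT aorta, 26 KO lung, 27 WT lung) and Scrublet doublets (5, 3, 9 and 9) were left out. Free RNA was not corrected for. Cells were clustered per tissue (scanpy 1.11.5, 2000 variable genes, 30 components, 15 neighbours, Leiden resolution 1) and named from marker lists, so names can differ from the authors'. Counts were summed over blood endothelial-like cells and scaled to 1000000 (CPM). CPM have exact Poisson and ratios exact conditional intervals (mitochondrial to nuclear ratios Woolf's), tested on simulated counts. Genes counted as apart are at least 25% higher or at most 0.8 times as high between genotypes, or 1.5-fold apart between tissues. Named genes are all mitochondrially encoded ones and, from the nuclear ones, the 6 highest and 6 lowest per comparison by the interval bound nearest 1, with a few vessel-type and tissue-form genes. Members, lists and rules were chosen with earlier results of these data known.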

Additional observations from a re-analysis of the deposited data

Results flagged for a closer look

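The KO over WT log2 ratio of mt-Atp8 was -1.04 in the aorta and 0.72 in the lung. It was singled out because the libraries moved in opposite directions in the 2 tissues. It had 115 CPM in KO aorta and 236 CPM in WT aorta, and 141 CPM in KO lung and 85.7 CPM in WT lung. Within clusters it was lower in KO in 7 of 7 aortic ones and higher in KO in 6 of 7 lung ones. With 1 library per group the difference between the tissues was not tested.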

How the results depend on the processing

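No paired analysis was possible because each group is 1 library, and for the same reason no replicate could be left out. Of 188 recomputed summary values, 126 stayed within the counting interval (for counts of genes, within 1.5 times), 59 moved and 3 reversed. Values below are log2 ratios of summed levels (mt for mitochondrially encoded, nuclear, or mt over nuclear), and the cause of the moves was not tested. For KO over WT aorta the mt sum (-0.07) was -0.155 with no limit on mitochondrial share, -0.046 with cells of at least 1000 UMIs, -0.018 thinned to 1000 UMIs and -0.033 with clusters weighted alike. Mt over nuclear (-0.09) was -0.178, -0.020 and -0.056 with no limit, thinned and with clusters weighted alike. For KO over WT lung the mt sum (-0.04) reversed to 0.032 as a mean of per-cell CPM, 0.0042 thinned and 0.016 without epithelial and erythroid UMIs in the totals, and was -0.0085 with no limit and -0.011 in all kept cells. The nuclear sum (-0.10) was -0.048 without those UMIs, and mt over nuclear (0.06) was 0.12 as a mean per cell. For WT aorta over lung the mt sum (0.49) was 0.43 at most 10% mitochondrial, 0.61 with no limit, 0.53 at 1000 UMIs, 0.52 per cell, 0.61 thinned, 0.60 with clusters weighted alike and 0.45 without the aortic cluster led by Stab1 and mt-Nd5. Mt over nuclear (0.27) was 0.21, 0.41, 0.33, 0.37 thinned, 0.39 weighted and 0.235 without that cluster, and the nuclear sum (0.21) 0.24 per cell and 0.24 thinned. For KO aorta over lung the mt sum (0.45) was 0.40 at most 10%, 0.54 at 1000 UMIs, 0.42 per cell, 0.59 thinned, 0.60 weighted, 0.40 without epithelial and erythroid UMIs and 0.425 without that cluster. Mt over nuclear (0.12) was 0.064, 0.22, 0.080, 0.25 and 0.28 in the first 5 of these, and the nuclear sum (0.33) 0.28 without those UMIs.

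Counts of nuclear genes past the fold were 3, 10, 2 and 8 for KO over WT aorta, KO over WT lung, WT aorta over lung and KO aorta over lung. They were 0, 1, 0 and 0 at the larger fold (1.5 between genotypes, 2.0 between tissues), 14, 16, 10 and 12 with no filter on low counts, 7, 13, 5 and 8 when genes of 20 CPM or more entered, and 5 for the lung genotypes without epithelial and erythroid UMIs. Mitochondrially encoded counts of 2, 2, 4 and 1 were 1, 1, 2 and 1 at the larger fold, and the last was 2 with no filter and 2 without those UMIs. The highest vessel-type ratio was 2.48 times the lowest in KO aorta, 2.49 in WT aorta and 1.62 in WT lung; it was 1.88 in KO aorta and 2.10 in WT aorta at Leiden resolution 0.5, and 1.89, 2.15 and 1.48 when the cells were clustered without the members. Single genes were recomputed only where they were past the fold in a comparison, 32 cases in all. Of their 416 values 406 stayed, 9 moved and 1 reversed, Uqcrc2 in KO over WT lung at 0.11 when thinned. Of those that moved, mt-Atp8 in KO over WT aorta was -0.62 thinned. Depth limits the 20 nuclear genes that could not be compared, and levels of 0 allow up to 0.788 CPM in KO aorta, 3.47 in WT aorta, 3.28 in KO lung and 2.31 in WT lung.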
